A study of Mus musculus with 4 samples.

Results

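The occupancy of phosphorylated Smads in the early mouse molar is described here at 8 genes of cell cycle control, the cyclin-dependent kinase inhibitors Cdkn1a, Cdkn1b, Cdkn1c, Cdkn2a, Cdkn2b and Cdkn2c, and the growth drivers Myc and Ccnd1. They were taken by name, as the cytostatic arm of TGF-β signalling, from 21523 protein-coding mouse genes placed on chromosomes 1 to 19 and X. A locus is the gene body with 10 kb on each side (RefSeq gene table, GRCm38.p6, the assembly of mm10). Molar tooth germs came from wild-type CD1 embryos at E13.5 (embryonic day), the bud stage. CUT&RUN, in which an antibody guides a nuclease to cut DNA around its target, was run in 2 libraries for phosphorylated Smad3 (pSmad3) and 2 for phosphorylated Smad1/5 (pSmad1/5). No treated, mutant or control group was compared, and whole germs hold epithelium and mesenchyme together, so a peak cannot be assigned to either tissue. For each antibody the authors deposited 1 list of peaks common to its libraries, 7905 for pSmad3 and 10741 for pSmad1/5. Each peak carries the total and the maximum signal of its call in the authors' units. No value per library was used here, read depth is unknown, and there is no replicate error on any value below, so no test was run.

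Smad3 is phosphorylated by the receptors of TGF-β and activin, and Smad1 and Smad5 by those of BMPs. Once phosphorylated, they join Smad4, enter the nucleus and act at DNA with partner factors. In epithelial cells TGF-β stops growth by raising Cdkn1a and Cdkn2b and lowering Myc, which leaves the kinases that drive G1 inactive. In the mouse tooth, Cdkn1a is known as a gene of the enamel knot, a signalling centre whose cells stop dividing, and its expression there can be induced by BMP4.

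Peaks were found in the loci of Cdkn1a and Ccnd1 only. Of the 8 genes, 2 had a pSmad3 peak (25%), against 24.4% of all protein-coding genes, and 1 had a pSmad1/5 peak (12.5%), against 27.3%. Neither antibody had a peak at the other 6 (75%), where 62.4% of all protein-coding genes had none. The 8 genes are short, with a median length of 5503 bp against 17374 bp, and short loci meet fewer peaks. Among protein-coding genes no longer than Cdkn2a, the longest of the 8, 20.3% had a pSmad3 and 22.8% a pSmad1/5 peak. With 10 kb on each side the pSmad3 share was thus close to the background, and the pSmad1/5 share rests on a single gene. The pSmad3 count was also 2 with the gene body alone, against 16.8% of protein-coding genes, and 5 with 50 kb on each side (62.5%), against 42.4%. A missing peak means only that these lists hold none there, as weaker signal was not analysed here.

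**Figure D1:**
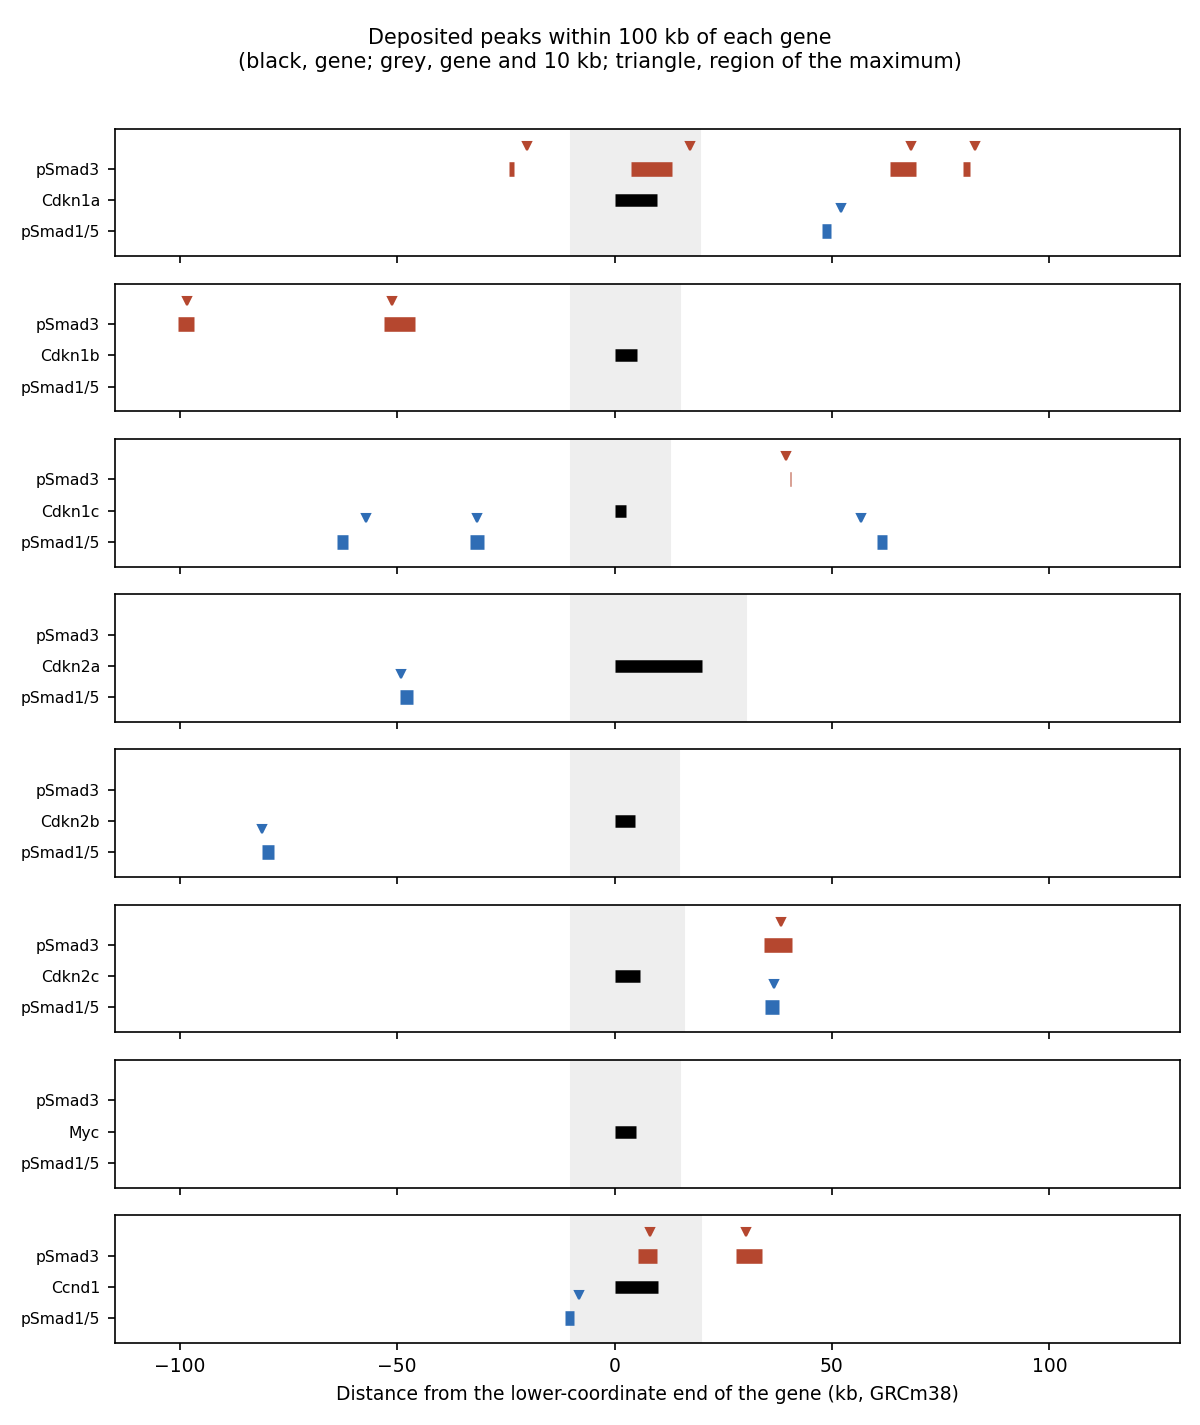
Peaks within 100 kb of each of the 8 genes, plotted as distance in kb from the lower-coordinate end of the gene, with pSmad3 (red) above and pSmad1/5 (blue) below the gene (black). Grey marks the gene with 10 kb on each side and triangles mark the region of maximum signal. Peaks meet the grey band at Cdkn1a (pSmad3) and Ccnd1 (pSmad3 and pSmad1/5), and the panel of Myc is empty.

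The CIP/KIP inhibitors bind and block complexes of cyclins with several cyclin-dependent kinases. Of these 3 genes, Cdkn1a, which encodes p21 and is a target of p53 as well as of TGF-β, had a pSmad3 peak. The gene lies on chromosome 17 (29090979 to 29100722) and is read towards higher coordinates. Its pSmad3 peak ran from 29094689 to 29104109. It covered 6034 of the 9744 bases of the gene (61.9%) and extended 3387 bp past the 3′ end, so the gene end inside the peak is where the transcript stops. The peak began 3710 bp after the first annotated transcription start and 920 bp after the second, and covered neither promoter window (250 bases before to 50 after a start). Its total signal was 124199, higher than in 95.4% of the pSmad3 list and 4.36 times the list median of 28468. The maximum of 25 was higher than in 93.3% of peaks, against a median of 13 with quartiles of 12 and 15. It was also long, with 9421 bp against a list median of 4693 bp. The deposited base of maximum signal, 29108253, lay 4144 bp beyond the edge of the peak and 7531 bp beyond the gene. From the start of the peak to that base is 13565 bp, so the highest signal given for this call was downstream of Cdkn1a and not at a start.

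The windows at the starts of Cdkn1a are shown because the strongest pSmad3 peak of the set lay next to them without covering them. They are RefSeq sequences of GRCm38.p6, plus strand, at chr17:29090729-29091028 (start 1) and chr17:29093519-29093818 (start 2). Capitals mark matches on either strand to CAGAC (the Smad box), GGCGCC or GGCCG (GC-rich Smad elements).
Cdkn1a start 1: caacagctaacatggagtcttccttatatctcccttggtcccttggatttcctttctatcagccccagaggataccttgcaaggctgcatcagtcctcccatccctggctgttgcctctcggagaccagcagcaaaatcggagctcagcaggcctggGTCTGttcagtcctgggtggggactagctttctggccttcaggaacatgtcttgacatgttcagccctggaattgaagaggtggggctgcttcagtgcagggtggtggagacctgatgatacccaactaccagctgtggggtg
Cdkn1a start 2: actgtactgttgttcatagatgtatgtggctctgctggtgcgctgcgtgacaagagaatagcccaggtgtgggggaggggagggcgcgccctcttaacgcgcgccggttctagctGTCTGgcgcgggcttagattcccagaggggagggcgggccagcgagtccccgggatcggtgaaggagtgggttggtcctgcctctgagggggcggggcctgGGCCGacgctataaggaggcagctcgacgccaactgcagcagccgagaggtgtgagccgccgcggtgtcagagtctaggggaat
Each window held CAGAC once, and the second also held GGCCG once. CAGAC was present in 49.5% of all 32619 RefSeq windows of this length, GGCGCC in 11.95% and GGCCG in 35.5%, so these matches are common. The palindrome GTCTAGAC, found in 0.215% of windows, was in none of the 8 windows matched to the set. Matches of different motifs were counted separately where they overlapped.

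Farther from Cdkn1a, 3 other pSmad3 peaks lay within 100 kb. One was 23096 bp upstream, inside Trp53cor1, the lncRNA also called lincRNA-p21 (total 31284, percentile 60.0, where a percentile is the share of the list with a lower value). The other two lay 53668 and 70482 bp downstream, over an end of Cpne5 and inside it, a gene of a calcium-dependent membrane-binding protein, with totals of 25443 and 33002 (percentiles 35.4 and 64.3). The only pSmad1/5 peak in this range was 37985 bp downstream, inside Rab44, a gene of the Rab GTPase family. Its total of 37618 was low in its list (percentile 8.7), while its maximum of 19 was above the median of 16. None of these 4 peaks approached the one at Cdkn1a in total signal within its own list.

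Cdkn1b, which encodes p27, had no peak in its locus on chromosome 6 (134920401 to 134925525). The nearest pSmad3 peak lay 45936 bp away, from 134867370 to 134874465, and touched Crebl2, a bZIP protein gene, and Gpr19, an orphan receptor gene. With a total of 50648 (percentile 83.5) and a maximum of 14, it was the second highest by total among the pSmad3 peaks within 100 kb of any of the 8 genes. A weaker one, over an end of the lncRNA 1700055D16Rik, lay 96652 bp away (total 23412, percentile 22.0). No pSmad1/5 peak fell within 100 kb, and the nearest was 152905 bp away.

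Cdkn1c, which encodes p57 and is expressed from the maternal allele, lies in the imprinted region of chromosome 7 (143458339 to 143461059) and had no peak in its locus. Here pSmad1/5 peaks were the more numerous in the surroundings, with 3 within 100 kb against 1 for pSmad3. Both pSmad1/5 peaks on the lower-coordinate side touched Kcnq1, a potassium channel gene. The closer one, over the near end of Kcnq1 from 143425075 to 143428317, was 30022 bp from Cdkn1c and had a total of 104694 (percentile 79.6) with a maximum of 16, equal to the list median. The farther one, inside Kcnq1 and 61213 bp away, had a total of 63840 (percentile 59.1). The third lay 57611 bp away on the other side, inside Nap1l4, a histone chaperone gene, with a total of 37541 (percentile 8.4). The pSmad3 peak, inside the transporter gene Slc22a18 at 37614 bp, was a fragment of 156 bp whose maximum of 13 lay outside it.

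The INK4 inhibitors block the kinases Cdk4 and Cdk6, the partners of D-type cyclins. None of these 3 genes had a peak of either antibody in its locus. Cdkn2a, which encodes p16INK4a and, from another start, p19ARF, lies on chromosome 4 (89274473 to 89294619), and Cdkn2b, which encodes p15 and is the classic INK4 target of TGF-β, beside it (89306289 to 89311032). The nearest pSmad3 peaks to them were 2339371 and 2371187 bp away, the same peak over an end of Acer2, a ceramidase gene. Only 4.03% and 3.97% of protein-coding genes lay farther from a pSmad3 peak. On the other side the next pSmad3 peak was 5.95 and 5.94 Mb away, so the pair sat in a stretch of 8.31 Mb without one. Among 7809 stretches between neighbouring pSmad3 peaks, 25 were longer. A long stretch takes in a gene more readily than a short one (median 65.2 kb), so this is not a share of genes. A pSmad1/5 peak lay closer, 46407 bp from Cdkn2a and 78223 bp from Cdkn2b, outside genes (89225213 to 89228066). Its total was 72031 (percentile 64.6) and its maximum 18. Because the same peak serves both neighbours, they are not separate observations.

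The promoter window of Cdkn2b is shown as that of an inhibitor known as a TGF-β target whose surroundings held no pSmad3 peak (chr4:89310983-89311282, minus strand, GRCm38.p6, capitals as above).
Cdkn2b: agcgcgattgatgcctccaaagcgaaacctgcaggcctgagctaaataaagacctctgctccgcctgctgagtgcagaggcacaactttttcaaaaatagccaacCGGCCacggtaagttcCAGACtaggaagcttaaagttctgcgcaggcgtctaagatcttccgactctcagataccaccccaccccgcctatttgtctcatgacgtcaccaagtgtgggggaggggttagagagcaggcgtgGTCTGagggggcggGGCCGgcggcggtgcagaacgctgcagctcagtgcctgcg
It held CAGAC 2 times and GGCCG 2 times. Such letters were thus present at a start far from any pSmad3 peak as well as at the starts of Cdkn1a. Windows were matched for 5 of the 8 genes, Cdkn1a, Cdkn1b, Cdkn2a, Cdkn2b and Cdkn2c. None of these 8 windows was covered by a peak, where 3.84% of all windows were covered by a pSmad3 and 3.1% by a pSmad1/5 peak. The starts of Cdkn1c, Myc and Ccnd1 were not among them, so peaks over those starts were not assessed.

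Cdkn2c, which encodes p18, lies elsewhere on chromosome 4 (109660876 to 109666756). It was the gene of the set beside which both antibodies had a peak in the same place. The pSmad3 peak (109695153 to 109701806) lay 28397 bp away inside Faf1, a gene of an adaptor of Fas signalling, with a total of 38395 (percentile 73.5) and a maximum of 16. The pSmad1/5 peak (109695506 to 109698709) lay wholly within it, with a total of 79778 (percentile 69.0) and a maximum of 24 (percentile 85.3). These 3204 shared bases were the only overlap of the antibodies within 100 kb of the 8 genes, and no overlap occurred within a locus. Only Ccnd1 had peaks of both antibodies in its locus, so overlap was possible there alone. The share of peaks that overlap over the whole lists was not counted, so these counts do not show the antibodies keeping apart. Totals of the antibodies are on separate scales and are not compared.

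Myc, a transcription factor that drives growth and represses Cdkn1a and Cdkn2b, had no peak of either antibody for over 1 Mb in both directions. The gene lies on chromosome 15 (61985341 to 61990361), in a gene-poor region known for distant enhancers. The nearest pSmad3 peak was 1136282 bp away on the lower-coordinate side (60845324 to 60849059), with a maximum of 8, the lowest value in the list. The nearest pSmad1/5 peak was 1159460 bp away on the same side, at Lratd2. Of all protein-coding genes, 9.26% lay farther from a pSmad3 peak and 5.11% farther from a pSmad1/5 peak. On the other side the first peaks of both antibodies, 2.09 Mb away near Asap1, overlapped each other, and they had totals of 26751 for pSmad3 and 40567 for pSmad1/5 (percentiles 42.0 and 19). The stretch around Myc without a peak of either list measured 3.23 Mb, and 82 of 16040 such stretches between peaks of the joint lists were longer (0.511%). Most stretches were short (median 30.9 kb), and a long one takes in a gene more readily. The 0.511% is therefore not a share of genes and makes Myc look rarer than the shares of genes above.

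Ccnd1, which encodes cyclin D1 and is induced by growth signals, was the gene of the set with peaks of both antibodies in its locus. It lies on chromosome 7 (144929931 to 144939831). The pSmad3 peak ran from 144935438 to 144939804, wholly inside the gene. It covered 44.1% of the gene and stopped 27 bp short of the end with the higher coordinate. No strand or promoter window was matched for Ccnd1. Whether that end is its start, and whether the peak meets its promoter, was therefore not read. In strength this pSmad3 peak was ordinary, with a total of 24363 (percentile 28.6) and a maximum of 13, equal to the list median. The maximum lay inside the peak and inside the gene. A second pSmad3 peak lay 18074 bp beyond that end, outside genes, with a total of 30829 (percentile 58.7) and a maximum of 15.

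The pSmad1/5 peak of Ccnd1 was on the opposite side, from 144918519 to 144920642, and did not meet the pSmad3 peaks. It lay inside LTO1, a gene of ribosome assembly whose annotated span overlaps this end of Ccnd1, 9289 bp from Ccnd1 and so just within the 10 kb flank. Its total of 42850 (percentile 26.0) and maximum of 15 were both below the list medians of 55037 and 16. It no longer counted with a flank of 5 kb or when its midpoint had to lie in the locus, and Ccnd1 then had pSmad3 alone.

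**Figure D2:**
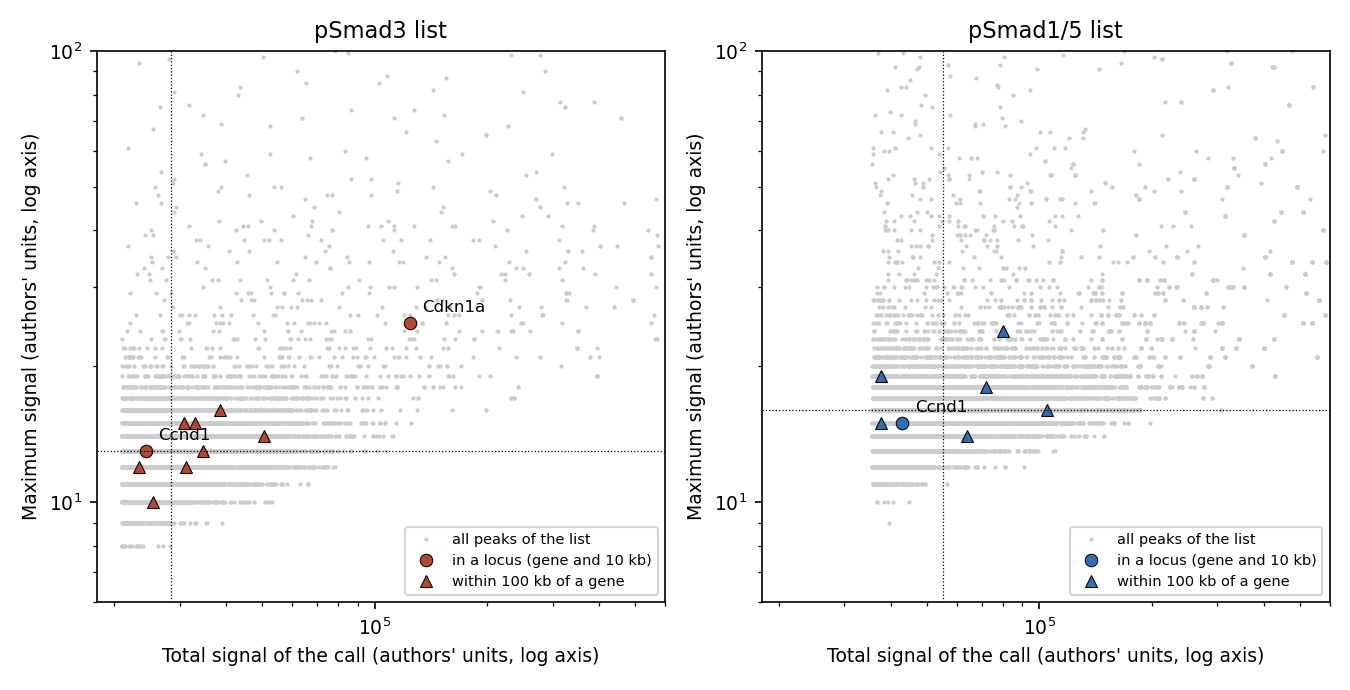
Maximum against total signal of each peak (authors' units, both axes logarithmic) in the pSmad3 list (left) and the pSmad1/5 list (right). Grey points are all peaks, circles lie in a locus of the 8 genes, triangles within 100 kb of one, and dotted lines are list medians. Among the marked peaks, the pSmad3 peak of Cdkn1a stands apart at a total of 124199 and a maximum of 25, within the upper part of the grey points, while both peaks of Ccnd1 lie at or below the medians. The axes leave out 196 pSmad3 and 528 pSmad1/5 peaks with higher values.

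Within 100 kb of the 8 genes lay 10 distinct pSmad3 and 7 distinct pSmad1/5 peaks. Maxima ran from 10 to 25 for pSmad3 and from 14 to 24 for pSmad1/5. None exceeded 2 times its list median. Totals at or above the list median were carried by 7 of the 10 pSmad3 and 4 of the 7 pSmad1/5 peaks. Of these peaks, 9 for pSmad3 and 6 for pSmad1/5 touched a protein-coding or lncRNA gene. The same share was not counted over the whole lists, so nothing is read from it. The region of maximum signal lay inside the peak for 6 of the 10 and 2 of the 7. For the other peaks near the 8 genes, that of Cdkn1a among them, the total and maximum describe a call that reached beyond the deposited interval. Each of the 17 was the single deposited piece of its call.

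In distance to the nearest peak the set was split. Cdkn1a and Ccnd1 were touched by a pSmad3 peak, while 83.2% of protein-coding genes were not. Cdkn2c, Cdkn1c and Cdkn1b followed at 28.4, 37.6 and 45.9 kb, nearer than the median protein-coding gene at 79.2 kb (quartiles 11.0 and 326 kb). Myc, Cdkn2a and Cdkn2b were more than 1 Mb away. For pSmad1/5 the order was Ccnd1 (9.29 kb), Cdkn2c (28.8 kb), Cdkn1c (30.0 kb), Cdkn1a (38.0 kb), Cdkn2a (46.4 kb), Cdkn2b (78.2 kb), Cdkn1b (153 kb) and Myc (1159 kb), against a median of 58.1 kb (quartiles 7.18 and 229.7 kb). With 1 list per antibody, neighbours in these orders cannot be separated by replicate error.

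**Figure D3:**
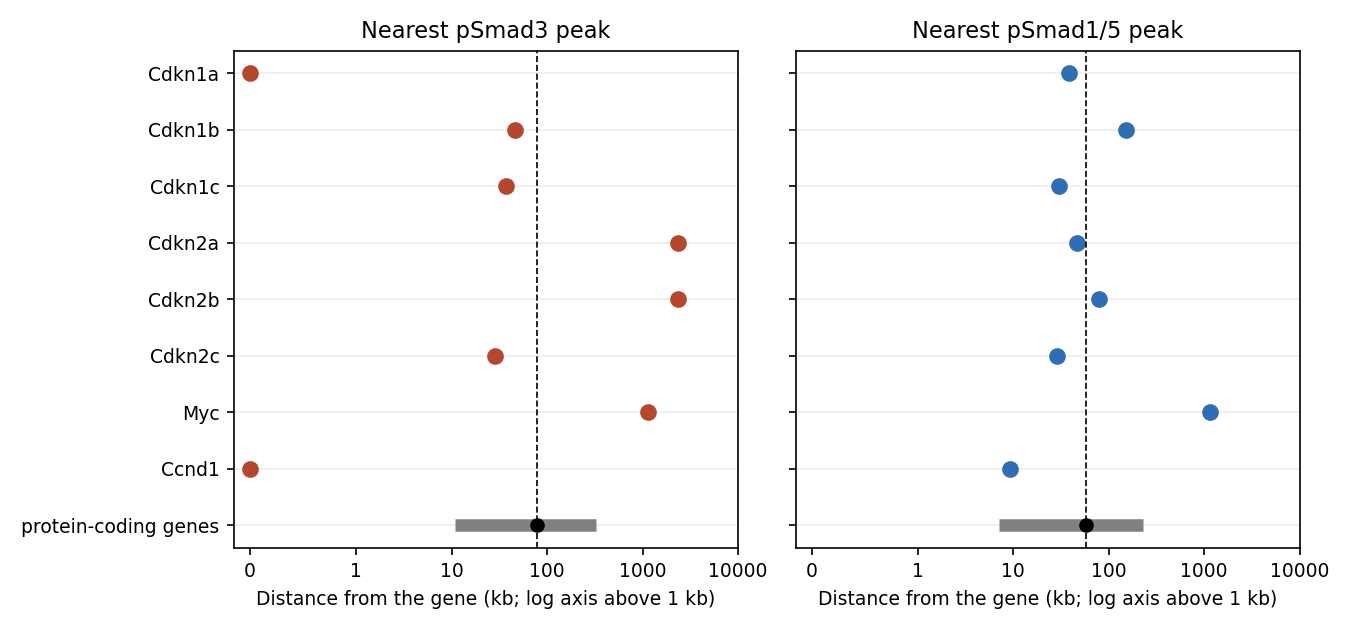
Distance in kb from each of the 8 genes to its nearest pSmad3 peak (left) and pSmad1/5 peak (right), on an axis that is logarithmic above 1 kb. The bottom row gives the median (black point, dashed line) and quartiles (grey bar) of all 21523 protein-coding genes. Cdkn1a and Ccnd1 sit at 0 for pSmad3, Cdkn2a and Cdkn2b at 2339 and 2371 kb for pSmad3, and Myc at 1136 kb for pSmad3 and 1159 kb for pSmad1/5.

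The wider surroundings differed as much as the loci. Within 500 kb of Ccnd1 lay 16 pSmad3 and 29 pSmad1/5 peaks (16 and 23 calls), and fewer were found around 91.1% and 98.0% of protein-coding genes. Around Cdkn1c there were 13 pSmad3 and 23 pSmad1/5 peaks (13 and 22 calls), with fewer around 84.9% and 94.6% of genes. Around Cdkn1a there were 15 and 10 (15 and 9 calls), with fewer around 89.2% and 66.6% of genes. Cdkn2c had 3 and 5 peaks in this range and Cdkn1b 2 and 1, where the median gene had 4 and 6. Cdkn2a and Cdkn2b had 0 pSmad3 peaks, with 5 and 3 pSmad1/5 peaks, and Myc had 0 of both. No pSmad3 peak in this range was found for 18.4% of protein-coding genes and no pSmad1/5 peak for 13.6%. Thus Ccnd1 lay where peaks of both antibodies were dense, and so did Cdkn1c, which had none in its locus. Around Cdkn1a, pSmad3 peaks were dense and pSmad1/5 peaks less so. How much of each locus result follows from local density was not tested.

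The rest of the cell cycle machinery was read from a list of 60 genes that holds none of the 8. Of these, 16 had a pSmad3 peak in the locus (26.7%) and 18 a pSmad1/5 peak (30.0%), near the background shares given above. With peaks at or above the median total the pSmad1/5 count was 4 (6.67%), below the 14.4% of protein-coding genes in that setting. Both antibodies had a peak at 7, pSmad3 alone at 9, pSmad1/5 alone at 11, and 33 had neither (55.0%), where 14.1%, 10.3%, 13.2% and 62.4% of protein-coding genes fell in these classes. The remaining inhibitors, Cdkn2d and Cdkn3, had none. Of 8 cyclins, Ccnd3 had peaks of both antibodies and Ccnb2 a pSmad1/5 peak, while the other 6, with Ccnd2, Ccne1 and Ccne2, had none. Some of these absences depend on the flank of 10 kb. Ccne1 lay 10236 bp from a pSmad3 and 11696 bp from a pSmad1/5 peak, and Cdkn2d 11382 bp from a pSmad1/5 peak. Of 9 kinases and phosphatases, 2 had a pSmad3 and 4 a pSmad1/5 peak. Among 13 pocket protein and E2F genes the counts were 3 and 4, and Rb1, Rbl1 and Rbl2 had none. In the Myc network, the partners and antagonists of Myc, 5 of 11 genes had a pSmad3 peak and 3 a pSmad1/5 peak. Among 17 Smad partners and other regulators the counts were 5 and 5.

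None of the 60 genes had a pSmad3 peak with a total as high in the list as that of Cdkn1a. Only 16 of them had a pSmad3 peak, and 95.4% of the whole list lay below the total of Cdkn1a, so little follows from this. The highest among the 60 was at Cdk6, a kinase that binds D cyclins, at percentile 75.3 (total 40084, maximum 18), 3802 bp outside the gene. Zbtb17, the partner through which Myc represses Cdkn1a and Cdkn2b, followed at 74.2 (total 38993), and E2f1, a transcription factor of S phase genes, at 73.4 (total 38267). Klf10, an early TGF-β response gene, stood at 70.3, Foxo1, a Smad partner at Cdkn1a in human cells, at 69.7, Cebpb, a Smad partner at Cdkn2b in human cells, at 69.7, Ccnd3 at 68.7 and E2f4 at 63.5. At Mycn, the Myc paralogue, both antibodies had a peak outside the gene, 1672 bp away for pSmad3 (percentile 45.3) and 2643 bp for pSmad1/5 (23.1), unlike at Myc itself.

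For pSmad1/5 the highest total among the 60 was also at Cdk6, with 157462 (percentile 88.8), 6990 bp outside the gene. Its maximum of 34 was over 2 times the list median, as was that of the other pSmad1/5 peak in this locus, which touched Cdk6. The peak with the highest total (3332110 to 3334014) lay wholly within the pSmad3 peak of Cdk6 (3330274 to 3337202). Both are close to the first 3 Mb of chromosome 5, where genes were left out. E2f4, a repressor that joins Smad3 at Myc in human epithelial cells, followed at 77.5, Smad3 itself at 68.5, Mnt, an antagonist of Myc, at 67.9, and Cks1b, a cofactor of p27 degradation, at 47.7. Cdk4 stood at 40.6, E2f6 at 36.2 and Mxd3 at 35.5.

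Among 58 promoter windows of these genes, pSmad3 peaks covered 3 (5.17%), at Cebpb, Mxd4 and Smad3. The pSmad1/5 peaks also covered 3 (5.17%), at Cdk4, Cks1b and Mnt. Of all RefSeq windows, 3.84% were covered by a pSmad3 and 3.1% by a pSmad1/5 peak. With 3 windows for each antibody, little can be read from the difference. The window of Cdk4 is shown as the start, covered by a peak, of the kinase that the INK4 proteins block (chr10:127063285-127063584, plus strand, GRCm38.p6, capitals as above).
Cdk4: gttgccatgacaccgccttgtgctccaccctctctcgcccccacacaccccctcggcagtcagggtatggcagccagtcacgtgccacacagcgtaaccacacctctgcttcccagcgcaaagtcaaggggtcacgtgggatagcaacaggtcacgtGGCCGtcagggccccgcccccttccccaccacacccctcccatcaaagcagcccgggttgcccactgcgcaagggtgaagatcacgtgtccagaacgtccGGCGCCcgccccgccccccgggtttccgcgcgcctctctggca
It held GGCGCC and GGCCG once each and no CAGAC. The pSmad1/5 peak over it ran from 127062597 to 127065461, with a total of 49200 and a maximum of 18.

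**Figure D4:**
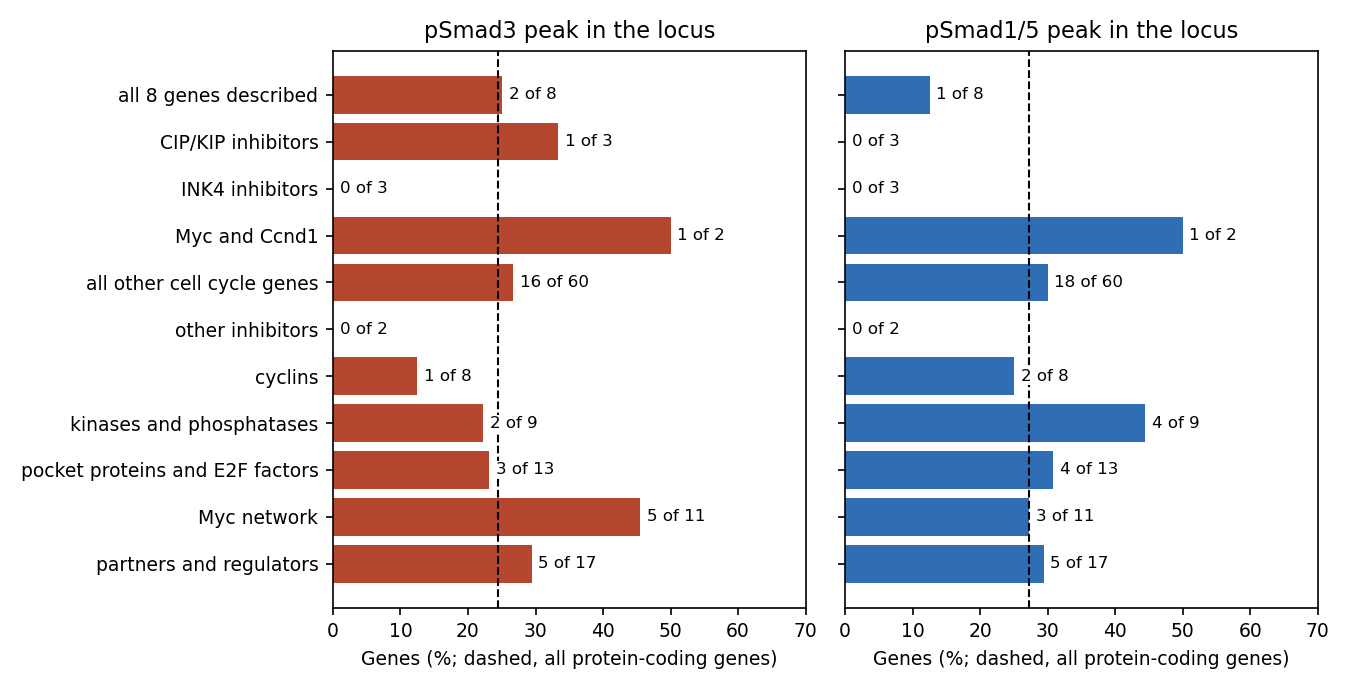
Share of genes (%) with a pSmad3 peak (left) and a pSmad1/5 peak (right) in the locus, for the 8 genes and their groups above and for 60 other cell cycle genes and their groups below. Labels give the counts, and dashed lines mark all protein-coding genes (24.4% and 27.3%). The INK4 inhibitors have 0 of 3 for both antibodies, and the Myc network has 5 of 11 for pSmad3. The groups are small and the loci of Cdkn2a and Cdkn2b overlap, so little follows from the share of a single group.

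By pattern, Cdkn1a was 1 of 552 protein-coding genes with a pSmad3 peak over a gene end and no pSmad1/5 peak in the locus. These are part of the 2216 genes with pSmad3 alone, 10.3% of all 21523 protein-coding genes. The closest of the 552 to Cdkn1a by the percentiles of total and maximum were Gm5592 (total 97189, maximum 22), Zfp970 (564712 and 23) and Gucd1 (72527 and 17). They lay at 1.72, 3.60 and 11.3 percentile points. This likeness is over 1 peak list. Leaving out peaks with a total under the list median kept Cdkn1a and removed Ccnd1 from the pSmad3 count, and left no gene with a pSmad1/5 peak. Placing peaks by their region of maximum kept Cdkn1a and Ccnd1 for pSmad3 and Ccnd1 for pSmad1/5.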

How the data were processed

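The authors processed the reads. Per the submitters' processing notes, Bowtie2, SAMtools, bedtools, SEACR and deepTools were used with the mouse build mm10, without versions or settings. Digestion lasted 30 min and reads were paired-end, 100 bp long, per the labels' protocols. The deposited lists give, per peak, a position and the total and maximum coverage signal of its SEACR call, with the region of the maximum. The scaling, the threshold, any control library and the way the 2 libraries of an antibody were joined are not stated by the labels. A deposited interval can therefore be a part of its call.

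Genes on chromosomes 1 to 19 and X were taken from the RefSeq table of GRCm38.p6, leaving out the first 3 Mb of each chromosome. A gene had a peak if at least 1 bp lay in its body or 10 kb on either side. Percentiles are the share of the same list with a lower value. Strand and promoter sequence came from the RefSeq window table. Positions were converted to 1-based. The counting was tested on simulated data. Python 3.11.15 and pandas 2.3.3 were used.

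The 8 genes, the 60 others and all comparisons were chosen with earlier results of these data known, so no test was run and no p-value is given. Names beyond the 8 follow a fixed rule: the highest percentiles per list, genes at peaks within 100 kb, and the 3 genes most alike. Cdkn2d, Cdkn3, Ccnb2, Ccnd2, Ccne1, Ccne2, Mycn, Rb1, Rbl1, Rbl2, Mxd4 and the genes at more distant peaks were named after their values were seen, as was the comparison with genes no longer than Cdkn2a. Alternatives covered the flank, the placing of a peak, stricter lists and calls in place of peaks.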

Additional observations from a re-analysis of the deposited data

How the results depend on the processing

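Counts of genes with a peak moved with the flank and with the filter on total signal. With 50 and 100 kb on each side, 5 and 5 of the 8 genes had a pSmad3 peak and 5 and 6 a pSmad1/5 peak, against 42.4% and 54.2% of protein-coding genes for pSmad3 and 47.3% and 59.9% for pSmad1/5. With peaks at or above the median total, 1 of the 8 had a pSmad3 peak (12.5%) and 0 a pSmad1/5 peak, against 14.1% and 14.4% of protein-coding genes. The pSmad1/5 count of the 8 was also 0 with the gene body alone, with 5 kb and with midpoints, where 18.4%, 23.2% and 26.3% of protein-coding genes had such a peak. For the 60 other genes, pSmad3 counts were 8 with the gene body alone (13.3%), 27 with 50 kb (45.0%), 33 with 100 kb (55.0%) and 9 with the stronger peaks (15%), near the shares of 16.8%, 42.4%, 54.2% and 14.1% over protein-coding genes. Their pSmad1/5 counts were 33 with 50 kb (55.0%) and 41 with 100 kb (68.3%), above the shares of 47.3% and 59.9%, and 4 with the stronger peaks (6.67%), below the share of 14.4%. Wider flanks take in more peaks by construction, and for the other settings the cause was not tested. Among the 8 genes, 24 counts of peaks per gene and setting moved by over 1.5 times, 19 with wider flanks and 5 with stricter settings. Most counts were 0, which stricter settings cannot lower, so the rest say little about stability. A stricter minimum for the overlap of the antibodies could not change a count of 0, and counting calls cannot change whether a gene has a peak. Leaving out peaks over 2 times the median maximum could change neither count of the 8 genes, as no peak within 100 kb of them exceeded that limit. No paired analysis was possible because each list merges the libraries of an antibody, and for the same reason no library could be left out. Depth is unknown, so a missing peak does not show absent binding.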
